A study of Cricetulus griseus with 4 samples.

Results

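Ribosome biogenesis and RNA polymerase I genes were followed across 4 RNA libraries of CHO-K1 cells, a long-established line from the ovary of a Chinese hamster. The genes were picked by a rule on symbols, set with earlier results of these data known. It took every gene named Nop, Utp or Rrp with a number, every Polr1 gene, and a short list of named nucleolar genes. Of that list, Npm1 matched no row by symbol. The rule gave 42 genes of 20754. All 42 were measured in every pair of libraries compared, which took 1 CPM and 10 counts in either library. CPM are counts per 1000000 of a library's effective size. The libraries came from cells kept for 24 hr with 25-hydroxyvitamin D3, with a selective SREBP inhibitor, with a selective VDR activator, or with DMSO as the control, 1 library each. All 4 cultures, the DMSO control included, were kept during treatment in 5% lipid-depleted serum with 50 µM compactin, a statin, and 50 µM lithium mevalonate. No dose was given in the labels for any of the 3 compounds, and sizes of response therefore stand beside each other at doses that may differ.

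Ribosomes are built mainly in the nucleolus. RNA polymerase I transcribes the long precursor of the ribosomal RNAs, small nucleolar ribonucleoproteins (snoRNPs) guide its methylation and pseudouridylation, and large assemblies fold and cleave it while ribosomal proteins are added. The small subunit processome prepares the small subunit, and a separate set of factors, the PeBoW complex among them, prepares the large one. The transcription factor MYC is well known for raising the expression of many of these genes in growing cells.

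With 1 library per group there is no replicate check and no test between conditions. Every difference below is between libraries, and 3 values given for the treated libraries stand for 25-hydroxyvitamin D3, the SREBP inhibitor and the VDR activator, in that order. Intervals in parentheses after a fold are exact 95% Clopper-Pearson intervals of the counts of both libraries and cover counting error only. Folds are ratios of CPM, and a gene is called 2-fold higher or lower where log2(CPM + 1) differed by 1 or more. Total counts were between 21335614 and 23653262. Mitochondrial-encoded mRNAs held 0.753% of counts with 25-hydroxyvitamin D3, against 5.25% with the SREBP inhibitor, 5.93% with the VDR activator and 6.81% in DMSO. Library sizes set without these mRNAs gave the same numbers of members past 2-fold in all comparisons. Of 5 mesenchymal marker genes 3 passed the minimum (Vim, Sparc and Col3a1), and the 5 together summed to 1289 CPM with 25-hydroxyvitamin D3, 2539 with the SREBP inhibitor, 2202 with the VDR activator and 3396 in DMSO. Granulosa cell markers summed to between 0.883 and 2.05 CPM, with Fshr at 0, and epithelial markers to between 0.818 and 1.77 CPM, with Krt18 at 0. In the granulosa, epithelial and blood or endothelial lists 1 gene each passed the minimum. Blood or endothelial markers summed to 14.8 CPM with 25-hydroxyvitamin D3 and to between 4.96 and 7.0 CPM in the other libraries, with Ptprc at 0. Whether these shifts have a part in the results was not tested. In bulk RNA, fewer cells with a transcript and less of it per cell cannot be told apart, and CPM do not show changes in total RNA per cell.

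The 42 genes together were most abundant with 25-hydroxyvitamin D3. They held 0.767% of all counts in that library (95% interval 0.763 to 0.771), 0.462% with the SREBP inhibitor (0.459 to 0.465), 0.313% with the VDR activator (0.310 to 0.315) and 0.246% in DMSO (0.244 to 0.248). Nucleolin (Ncl) alone accounted for 0.232% of counts with 25-hydroxyvitamin D3 and 0.0509% in DMSO. Without it the other 41 genes kept the same order, with 0.535% with 25-hydroxyvitamin D3, 0.338% with the SREBP inhibitor, 0.247% with the VDR activator and 0.195% in DMSO. Gene by gene, 35 of the 42 followed the order 25-hydroxyvitamin D3, SREBP inhibitor, VDR activator and DMSO from high to low, an order found in 20.7% of the 11547 genes measured. The exceptions were Ubtf, Nop10, Utp23, Imp3, Rrp36, Nop14 and Rrp8. DMSO was the lowest library for 40 of the 42, and for 32.2% of all measured genes.

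**Figure D1:**
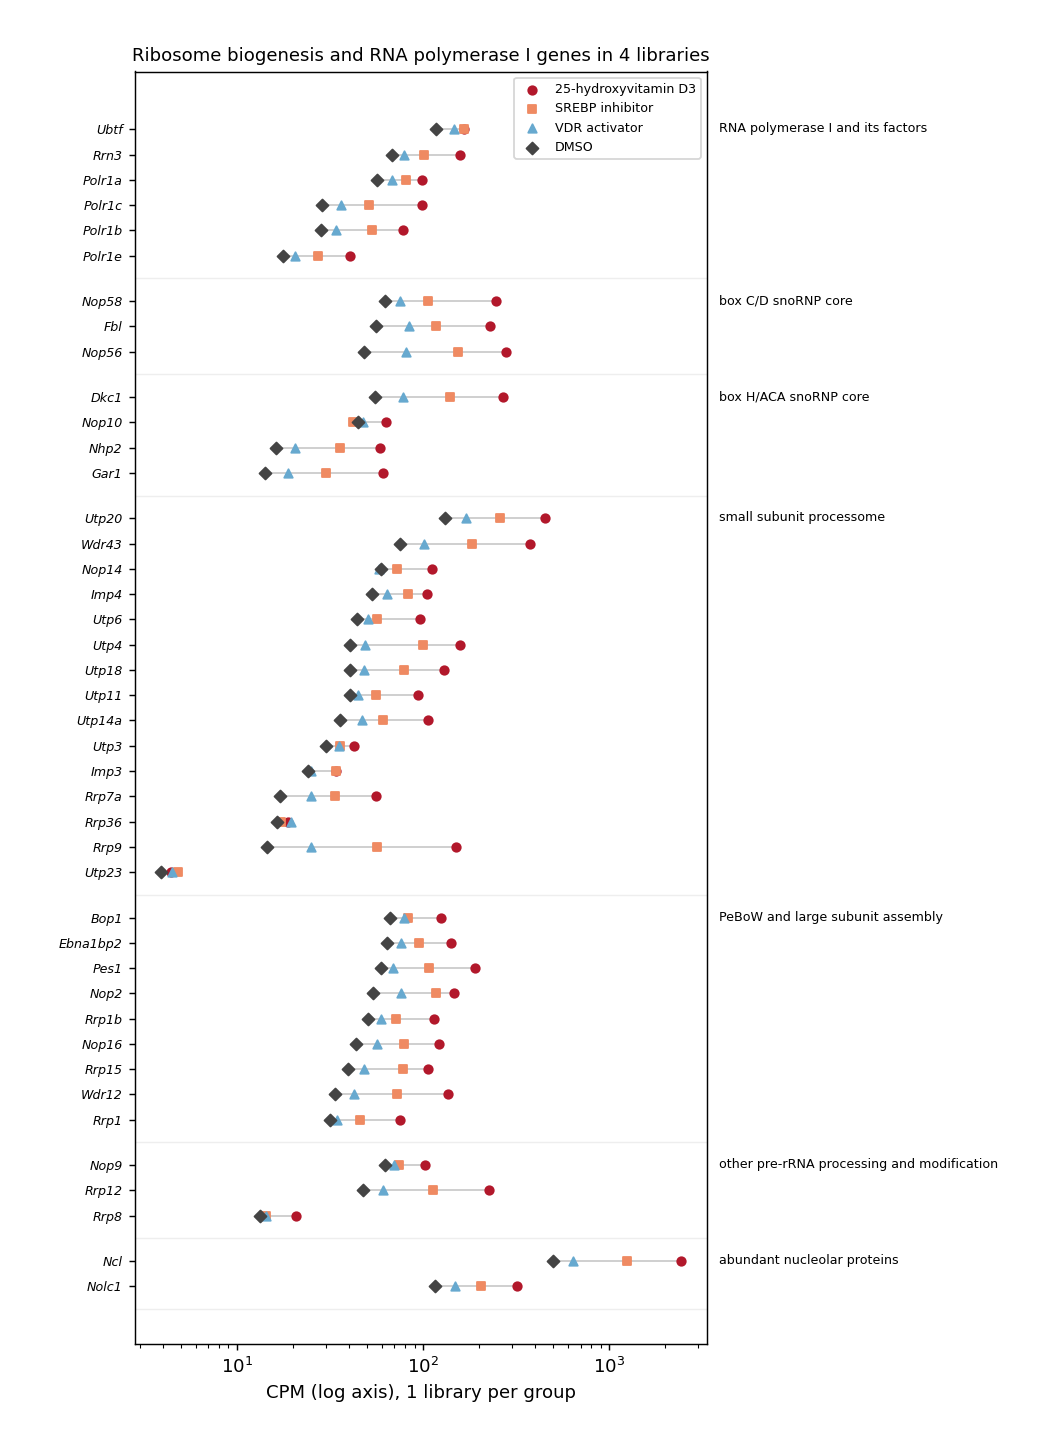
CPM of each of the 42 genes (log axis), grouped by role, with 1 point per library. The 25-hydroxyvitamin D3 library is highest for 38 of 42 genes, and for 43.4% of all measured genes. Rrp9 shows the widest spread, at 149 CPM with 25-hydroxyvitamin D3 and 14.6 CPM in DMSO.

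With 25-hydroxyvitamin D3 against DMSO, 30 of the 42 genes were at least 2-fold higher and 0 lower. Among all 11482 genes measured in this pair, 11.6% were at least 2-fold higher and 12.2% lower. The median difference of the 42 was 1.44 on the log2(CPM + 1) scale, beside 0.04 over all genes, and the 95th percentile of all genes was 1.42. All 42 were above DMSO, and 51.7% of all genes. With the SREBP inhibitor against DMSO, 12 of 42 were at least 2-fold higher and 0 lower, where the shares of all 11449 genes were 1.95% and 1.4%. All 12 were also among the 30 called with 25-hydroxyvitamin D3. The median was 0.79 log2, beside 0.01 over all genes, and 41 of 42 were above DMSO, where 51.4% of all genes were. With the VDR activator against DMSO, 0 of 42 passed 2-fold in either direction, where 0.184% of all 11431 genes were higher and 0.324% lower, and the median was 0.26 log2, beside 0.01. Here too 41 of 42 were above DMSO, and 52.1% of all genes. At a limit of 1.5-fold the members higher than DMSO numbered 36 with 25-hydroxyvitamin D3, 25 with the SREBP inhibitor and 2 with the VDR activator, and 0 were lower in each. The shares of all genes at that limit were 24.2%, 7.93% and 2.44% higher, and 23.6%, 6.2% and 1.92% lower. The 3 comparisons share the DMSO library, so they are not independent of each other.

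**Figure D2:**
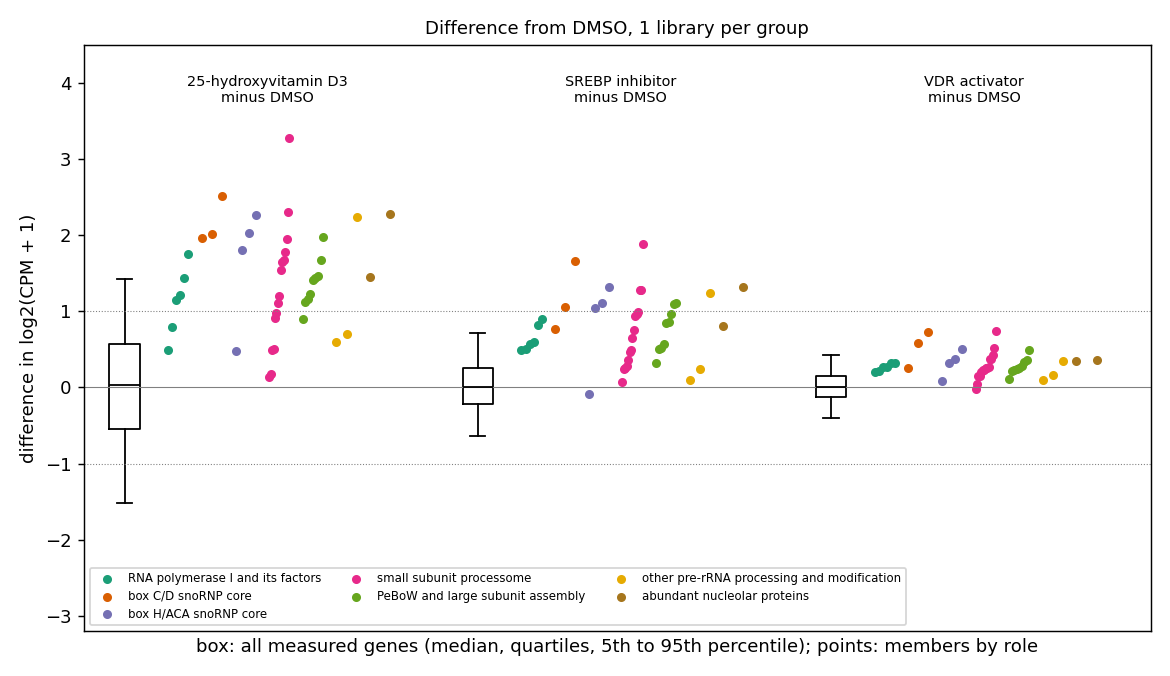
Difference from DMSO in log2(CPM + 1) for the 42 genes by role (points) beside all measured genes (box with median and quartiles, whiskers from the 5th to the 95th percentile). The members' medians lie at 1.44 with 25-hydroxyvitamin D3, 0.79 with the SREBP inhibitor and 0.26 with the VDR activator, and dotted lines mark 2-fold.

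The 6 members that encode RNA polymerase I subunits or its factors were above DMSO in all treated libraries, and Polr1c had the highest fold of the 6 with 25-hydroxyvitamin D3. Polr1c, whose product is shared with RNA polymerase III, had 98.7 CPM with 25-hydroxyvitamin D3, 51.4 with the SREBP inhibitor, 36.3 with the VDR activator and 28.7 in DMSO. Relative to DMSO its fold was 3.43 with 25-hydroxyvitamin D3 (3.14 to 3.76), and 1.79 in the SREBP inhibitor library (1.62 to 1.97). The gene of the second-largest subunit, Polr1b, had 78.0, 53.3 and 34.1 CPM with 25-hydroxyvitamin D3, the SREBP inhibitor and the VDR activator, and 28.1 CPM in DMSO. All treated libraries were thus above DMSO for both genes, in the same order. Polr1e, which encodes a subunit specific to RNA polymerase I, was at 40.4, 27.2 and 20.5 CPM in the same treated libraries and at 17.7 CPM in DMSO. Polr1a, the gene of the largest, catalytic subunit, differed less, with 98.3, 80.6 and 67.9 CPM in the treated libraries and 56.3 CPM in DMSO. Its fold with 25-hydroxyvitamin D3 was 1.74 (1.62 to 1.87), below the interval of Polr1c.

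The 2 initiation factors of RNA polymerase I in the set differed in their order. Rrn3, which links the polymerase to the promoter complex, had 159 CPM with 25-hydroxyvitamin D3, 101 with the SREBP inhibitor, 78.7 with the VDR activator and 67.8 in DMSO, or 2.34-fold over DMSO with 25-hydroxyvitamin D3 (2.20 to 2.49). Ubtf, which encodes the ribosomal DNA-binding factor UBF, stood at 165 CPM both with 25-hydroxyvitamin D3 and with the SREBP inhibitor, at 147 with the VDR activator and at 118 in DMSO. Its ratio between 25-hydroxyvitamin D3 and the SREBP inhibitor was 0.999 (0.954 to 1.05), and the sign of that difference was not the same under every scaling. Its fold over DMSO was 1.40 with 25-hydroxyvitamin D3 (1.33 to 1.48) and 1.25 with the VDR activator (1.19 to 1.32). Other RNA polymerase I subunits stand in the table under older symbols or a LOC identifier, and are not counted among the 42. Of these, Cd3eap (Polr1g) was 4.37-fold above DMSO with 25-hydroxyvitamin D3 (3.86 to 4.96), with 63.6 CPM, 42.0 with the SREBP inhibitor, 17.5 with the VDR activator and 14.6 in DMSO. Twistnb (Polr1f) was 1.82-fold above DMSO with 25-hydroxyvitamin D3, Znrd1 (Polr1h) 1.51-fold and the row of Polr1d, LOC100757843, 1.31-fold. The folds of these RNA polymerase I subunits with 25-hydroxyvitamin D3 thus spanned 1.31 to 4.37.

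Box C/D snoRNPs guide methylation of ribosomal RNA. The 3 of their core protein genes in the set were all at least 2-fold above DMSO with 25-hydroxyvitamin D3. Nop56 and Fbl were so also with the SREBP inhibitor. Of all genes, 11.6% and 1.95% were that much higher in these comparisons. Nop56, a scaffold protein of the particle, had 279 CPM with 25-hydroxyvitamin D3, 154 with the SREBP inhibitor, 80.6 with the VDR activator and 48.1 in DMSO. The folds over DMSO were 5.80 (5.43 to 6.20), 3.19 (2.98 to 3.42) and 1.67 (1.55 to 1.81), and Nop56 was 1 of the 2 members at least 1.5-fold higher with the VDR activator. Fbl, the methyltransferase fibrillarin, had 228, 117 and 83.5 CPM in the 3 treated libraries and 55.5 CPM in DMSO, which is 4.11-fold for 25-hydroxyvitamin D3 (3.86 to 4.38). Its fold with the VDR activator, 1.51 (1.40 to 1.62), was just under the 1.5-fold limit on the log2(CPM + 1) scale, at 0.58. Nop58, the partner scaffold protein of Nop56, had 245 CPM with 25-hydroxyvitamin D3 but 107 with the SREBP inhibitor, 74.8 with the VDR activator and 62.3 in DMSO. It was 2.30-fold higher with 25-hydroxyvitamin D3 than with the SREBP inhibitor (2.19 to 2.41), against 1.82-fold for Nop56 (1.74 to 1.90).

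Box H/ACA snoRNPs guide pseudouridylation, and 3 of their 4 core protein genes passed 2-fold with 25-hydroxyvitamin D3, Nop10 not. Of all genes, 11.6% were 2-fold higher in that comparison and 1.95% with the SREBP inhibitor. Dkc1, the pseudouridine synthase dyskerin, had 269 CPM with 25-hydroxyvitamin D3, 139 with the SREBP inhibitor, 78.4 with the VDR activator and 55.1 in DMSO, or 4.88-fold over DMSO with 25-hydroxyvitamin D3 (4.58 to 5.19). Gar1 had 60.8, 30.2 and 18.7 CPM in the treated libraries and 14.2 CPM in DMSO. Nhp2 had 58.9, 35.9 and 20.4 CPM there and 16.2 CPM in DMSO. All 3 were at least 2-fold above DMSO with both 25-hydroxyvitamin D3 and the SREBP inhibitor. Nop10, the smallest core protein, had 62.8 CPM with 25-hydroxyvitamin D3, 42.1 with the SREBP inhibitor, 47.5 with the VDR activator and 44.7 in DMSO. Its fold over DMSO was 1.40 with 25-hydroxyvitamin D3 (1.29 to 1.53), and the interval included 1 with the SREBP inhibitor, at 0.941 (0.860 to 1.03). Gar1 is listed on 2 rows of the same gene identifier, which were summed, and their folds with 25-hydroxyvitamin D3 were both 4.29. The 2 rows of Polr1a gave 1.58 and 1.84, and those of Rrn3 2.35 and 2.31.

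Compared per length, with the authors' FPKM within a library, the proportions of these subunit mRNAs differed between libraries. Nop10 stood at 1.19 times the FPKM of Dkc1 with 25-hydroxyvitamin D3, 1.55 times with the SREBP inhibitor, 3.08 times with the VDR activator and 4.13 times in DMSO. For Nhp2 over Dkc1 the ratios of FPKM were closer together, with 0.716, 0.847 and 0.851 in the treated libraries and 0.959 in DMSO. For Polr1c over Polr1a the ratio was 6.01 with 25-hydroxyvitamin D3 and 3.82, 3.42 and 3.22 with the SREBP inhibitor, with the VDR activator and in DMSO. This ratio rests on the Polr1a row with more counts, at 11.6 FPKM with 25-hydroxyvitamin D3 and 6.68 FPKM in DMSO. The other Polr1a row had 12.8 and 8.58 FPKM there, so the size of the ratio depends on the row. Ncl had the highest FPKM of the 42 in every library, with 898 FPKM with 25-hydroxyvitamin D3 and 196 FPKM in DMSO. The median FPKM of the 42 was 48.6 with 25-hydroxyvitamin D3, 34.3 with the SREBP inhibitor, 24.4 with the VDR activator and 19.6 in DMSO. In DMSO the highest FPKM was 36.5 times the lowest, and with 25-hydroxyvitamin D3 it was 151 times.

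**Figure D3:**
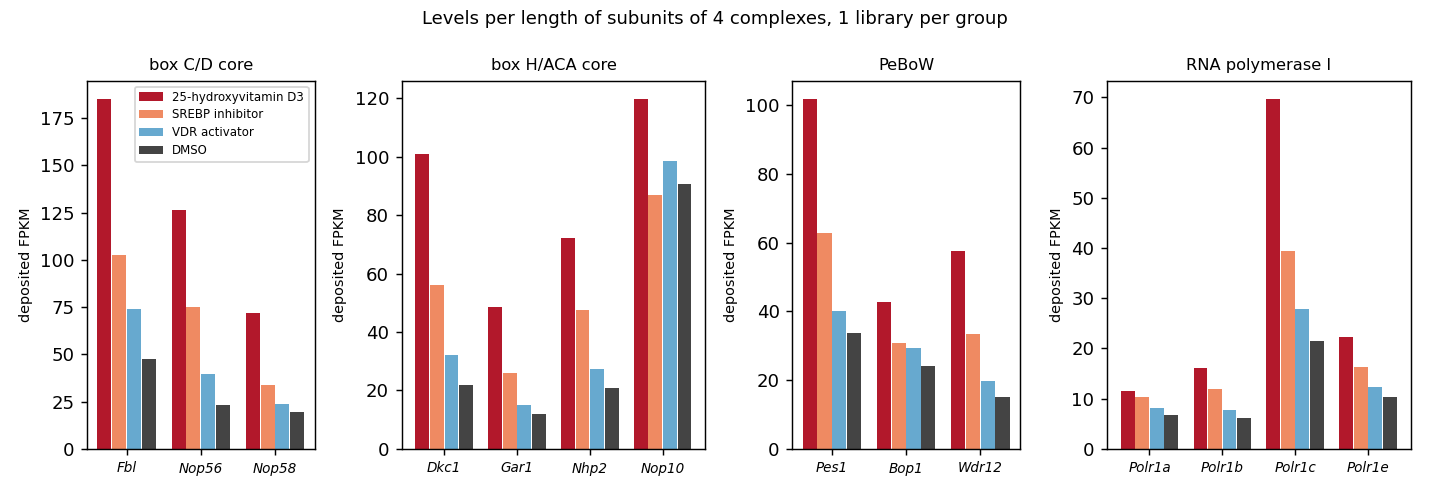
Deposited FPKM of subunits of 4 complexes, with 1 bar per library. Gar1 and Polr1a are shown by the row with more counts. Nop10 lies between 87.0 and 119.9 FPKM in all libraries, while Dkc1 lies at 101 FPKM with 25-hydroxyvitamin D3 and 21.9 FPKM in DMSO.

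Among 15 genes of the small subunit processome, 9 were at least 2-fold higher with 25-hydroxyvitamin D3 than in DMSO. With the SREBP inhibitor 3 were, and 0 were lower in either comparison. Of all genes, 11.6% and 1.95% were higher in these comparisons, and 12.2% and 1.4% lower. Rrp9 encodes the protein specific to the U3 snoRNP and had the largest fold of the 42. It stood at 149 CPM with 25-hydroxyvitamin D3, 56.3 with the SREBP inhibitor, 24.9 with the VDR activator and 14.6 in DMSO. Its folds over DMSO were 10.3 (9.13 to 11.6), 3.87 (3.42 to 4.39) and 1.71 (1.49 to 1.97), the largest of the 42 in each comparison. Wdr43, the counterpart of yeast Utp5, had 374, 182 and 101 CPM in the treated libraries and 74.7 CPM in DMSO, or 5.01-fold for 25-hydroxyvitamin D3 (4.75 to 5.29). Utp4, which acts with it at the start of assembly, had 158, 99.5 and 48.5 CPM in those libraries and 40.4 CPM in DMSO. Rrp9, Wdr43 and Utp4 were the 3 processome genes past 2-fold with the SREBP inhibitor.

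Utp20, the gene of one of the largest processome proteins, had 451 CPM with 25-hydroxyvitamin D3, 260.2 with the SREBP inhibitor, 169 with the VDR activator and 130.5 in DMSO. Its fold over DMSO was 3.46 with 25-hydroxyvitamin D3 (3.32 to 3.61) and 1.99 with the inhibitor (1.91 to 2.09), just short of the limit on the log2(CPM + 1) scale. Rrp7a (55.7 against 17.1 CPM in DMSO), Utp18 (129.8 against 40.2 CPM in DMSO), Utp14a (106 against 35.8 CPM in DMSO), Utp11 (93.4 against 40.2 CPM in DMSO) and Utp6 (96.2 against 44.1 CPM in DMSO) were between 2.18-fold and 3.26-fold higher with 25-hydroxyvitamin D3. With the SREBP inhibitor these 5 were between 1.28-fold and 1.98-fold above DMSO. Rows described as Utp15 and the row Diexf (Utp25) lie outside the 42 and had folds with 25-hydroxyvitamin D3 of 3.26 (LOC100755487), 4.08 (LOC103164204, 3.10 to 5.44) and 2.92 (Diexf).

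The other 6 processome genes stayed under 2-fold with 25-hydroxyvitamin D3. Imp3 and Imp4 both act in the complex with Mphosph10 that joins the U3 RNA to the precursor. Imp3 had 33.9 CPM with 25-hydroxyvitamin D3, 34.1 with the SREBP inhibitor, 24.8 with the VDR activator and 24.0 in DMSO, so that 25-hydroxyvitamin D3 and the SREBP inhibitor were level, at a ratio of 0.993 (0.896 to 1.10). Imp4 had 105, 83.1 and 63.7 CPM in the treated libraries and 52.9 CPM in DMSO, at 1.98-fold with 25-hydroxyvitamin D3 (1.85 to 2.13). Nop14 had 112 CPM with 25-hydroxyvitamin D3, 72.0 with the SREBP inhibitor, 58.0 with the VDR activator and 59.1 in DMSO, and was 1 of the 2 members that DMSO was not the lowest for, beside Nop10. The sign of its difference between the VDR activator and DMSO was not the same under every scaling. Utp3 had 42.7, 35.8 and 35.2 CPM in the treated libraries and 29.9 CPM in DMSO. Rrp36 lay between 16.5 and 19.4 CPM, and Utp23, the least abundant member by CPM, between 3.92 and 4.83 CPM. For Rrp36 the interval of the ratio between 25-hydroxyvitamin D3 and DMSO included 1, at 1.14 (0.987 to 1.32). So did that of Utp23, at 1.13 (0.829 to 1.54). Rrp36 and Utp23 were the only such members of the 42, and such intervals were not counted over all genes.

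Among 9 genes of large subunit assembly, 8 were at least 2-fold higher with 25-hydroxyvitamin D3 than in DMSO. With the SREBP inhibitor 2 were, and with the VDR activator 0. The shares of all genes that were higher were 11.6%, 1.95% and 0.184% in these comparisons. The PeBoW complex joins the products of Pes1, Bop1 and Wdr12, and these 3 genes differed in size of response. Wdr12 had 135 CPM with 25-hydroxyvitamin D3, 72.7 with the SREBP inhibitor, 42.7 with the VDR activator and 33.5 in DMSO, or 4.03-fold over DMSO with 25-hydroxyvitamin D3 (3.72 to 4.38). Pes1 had 189.8, 108 and 68.5 CPM in the treated libraries and 59.1 CPM in DMSO, or 3.21-fold (3.01 to 3.42). Bop1 had 125, 83.2 and 79.1 CPM there and 66.4 CPM in DMSO, and at 1.88-fold (1.76 to 2.01) was the one gene of the 9 under the limit. The intervals of the 3 folds did not overlap.

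Nop2 encodes a methyltransferase of large subunit ribosomal RNA and was the other gene, beside Wdr12, past 2-fold with the SREBP inhibitor. It had 147 CPM with 25-hydroxyvitamin D3, 117 with the SREBP inhibitor, 75.9 with the VDR activator and 53.6 in DMSO. Its ratio between 25-hydroxyvitamin D3 and the SREBP inhibitor, 1.26 (1.19 to 1.32), was below that of Wdr12, 1.86 (1.75 to 1.98). Nop16 (122 against 43.7 CPM in DMSO), Rrp15 (106 against 39.3 CPM in DMSO), Rrp1 (75.4 against 31.7 CPM in DMSO), Rrp1b (114 against 50.3 CPM in DMSO) and Ebna1bp2 (141 against 64.1 CPM in DMSO) were between 2.20-fold and 2.79-fold higher with 25-hydroxyvitamin D3. With the VDR activator these 5 were between 1.08-fold and 1.29-fold above DMSO.

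Of 3 further processing genes, Rrp12 alone passed 2-fold, with 25-hydroxyvitamin D3 and with the SREBP inhibitor. Of all genes, 11.6% and 1.95% were that much higher. Rrp12, known from yeast for a part in ribosome export and maturation, had 226 CPM with 25-hydroxyvitamin D3, 114 with the SREBP inhibitor, 60.7 with the VDR activator and 47.4 in DMSO, or 4.77-fold with 25-hydroxyvitamin D3 (4.46 to 5.11). Nop9, an RNA-binding protein known from yeast for a part in small subunit maturation, had 102, 73.9 and 69.9 CPM in the treated libraries and 62.4 CPM in DMSO. Rrp8, a ribosomal RNA methyltransferase, had 20.7 CPM with 25-hydroxyvitamin D3, 14.3 with each of the selective compounds and 13.3 in DMSO. Its intervals over DMSO included 1 for both selective compounds. The abundant nucleolar proteins were higher in all treated libraries. Ncl, a multifunctional RNA-binding protein and histone chaperone of the nucleolus, had 2432 CPM with 25-hydroxyvitamin D3, 1244 with the SREBP inhibitor, 639.8 with the VDR activator and 501 in DMSO. Its folds over DMSO were 4.86 (4.76 to 4.96), 2.49 (2.43 to 2.54) and 1.28 (1.25 to 1.31). Nolc1, which accompanies snoRNPs, had 319, 204 and 148 CPM in the treated libraries and 116 CPM in DMSO. The row LOC100761791, described as nucleophosmin, lies outside the 42 and had 831, 422 and 228 CPM in those libraries and 156 CPM in DMSO, or 5.33-fold with 25-hydroxyvitamin D3 (5.13 to 5.53).

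Between 25-hydroxyvitamin D3 and the SREBP inhibitor, 3 of 42 genes were at least 2-fold higher with 25-hydroxyvitamin D3 (Nop58, Rrp9 and Wdr43) and 0 lower. Among all 11314 genes measured in this pair, 3.15% were at least 2-fold higher and 6.05% lower. At 1.5-fold 26 of 42 were higher and 0 lower, where 13.8% of all genes were higher and 16.1% lower. With 25-hydroxyvitamin D3, 39 of 42 were above the SREBP inhibitor at all, and 51.8% of all genes. The median difference was 0.66 log2, beside 0.02 over all genes, and for 38 of 42 the interval of the ratio lay above 1. The exceptions were Ubtf, Utp23, Imp3 and Rrp36. Such intervals were not counted over all genes, so no share stands beside this number. For the 30 genes called with 25-hydroxyvitamin D3, the SREBP inhibitor's difference from DMSO was divided by that of 25-hydroxyvitamin D3 on the log2 scale. This ratio had a median of 0.554, between 0.320 and 0.773. Its genes were picked for a high difference with 25-hydroxyvitamin D3, which by itself tends to lower the ratio. Both differences also use the DMSO library. All 30 were higher with the SREBP inhibitor than with the VDR activator, and the share over all genes was not computed. In 37 of 42 genes the difference of 25-hydroxyvitamin D3 from DMSO exceeded the sum of the differences of both selective compounds, by a median of 0.41 log2 over the 42, most for Nop58 at 0.93. The share over all 11547 measured genes was 49.4%, with a median of -0.01. These sums use the DMSO library in every term.

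Other genes of the pathway were taken from a list of 89, of which 88 were found. With 25-hydroxyvitamin D3 against DMSO 62 of 88 were at least 2-fold higher and 0 lower, where 11.6% of all genes were higher and 12.2% lower, and their median was 1.27 log2, beside 0.04 over all genes. With the SREBP inhibitor 10 of 88 were 2-fold higher and 0 lower, where 1.95% of all genes were higher and 1.4% lower, with a median of 0.55 log2, beside 0.01. With the VDR activator 0 of 88 passed 2-fold or 1.5-fold either way. Of all genes, 0.184% were 2-fold higher and 0.324% lower, and 2.44% and 1.92% at 1.5-fold. Of the 88, 85 were above DMSO and 3 below, where 52.1% of all genes were above. Their median was 0.20 log2, beside 0.01. By role, 23 of 34 small subunit factors, 30 of 40 large subunit factors, 4 of 7 RNA polymerase I transcription partners and 5 of 7 snoRNP assembly factors were 2-fold higher with 25-hydroxyvitamin D3, beside the same 11.6% of all genes. The highest folds were those of Rcl1, a processome component, with 160.4 CPM with 25-hydroxyvitamin D3 and 27.9 CPM in DMSO (5.75-fold, 5.27 to 6.28), Mybbp1a, a nucleolar MYB-binding protein, with 313 CPM and 55.3 CPM in DMSO (5.66-fold), and Aatf (5.61-fold, 5.32 to 5.92). At the other end, Taf1c, a subunit of the RNA polymerase I selectivity factor, had 6.77 CPM with 25-hydroxyvitamin D3, 11.9 with the SREBP inhibitor, 12.2 with the VDR activator and 11.6 in DMSO, and was 1.71-fold lower with 25-hydroxyvitamin D3 (1.38 to 2.12). It was the only one of the 88 at least 1.5-fold lower than DMSO in any treated library. Sbds, of late large subunit maturation, was at 39.1 CPM with 25-hydroxyvitamin D3, 33.9 with the SREBP inhibitor, 27.2 with the VDR activator and 35.7 in DMSO. It was 1.31-fold lower with the VDR activator (1.18 to 1.46), the only one of the 88 whose interval lay below 1 in that comparison. The kinase gene Riok1 was at 45.0 CPM with 25-hydroxyvitamin D3 and 36.9 CPM in DMSO.

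The genes of the RNA exosome, which trims ribosomal RNA precursors, differed in size of response. All 10 measured were above DMSO with 25-hydroxyvitamin D3, and 51.7% of all genes. Of the 10, 4 were at least 2-fold above DMSO with 25-hydroxyvitamin D3, 1 with the SREBP inhibitor and 0 with the VDR activator. In each comparison 0 were that much lower. The shares of all genes in these comparisons were 11.6%, 1.95% and 0.184% higher, and 12.2%, 1.4% and 0.324% lower. Exosc2 had 59.4 CPM with 25-hydroxyvitamin D3 and 14.8 CPM in DMSO (4.02-fold, 3.55 to 4.56), Exosc8 was 3.09-fold higher and Exosc5 2.28-fold. Exosc4 (19.9 against 18.5 CPM in DMSO), Exosc10 (71.3 against 62.2 CPM in DMSO) and Exosc1 (24.0 against 18.6 CPM in DMSO) had the smallest differences with 25-hydroxyvitamin D3. The list of RNA polymerase III genes had a median difference of 0.54 log2 between 25-hydroxyvitamin D3 and DMSO, beside 0.04 over all genes. Of its 13 genes 3 were at least 2-fold higher with 25-hydroxyvitamin D3 and 0 lower, beside 11.6% and 12.2% of all genes. The 3 were Polr3e (112 against 24.2 CPM in DMSO, 4.64-fold), Polr3d (58.9 against 21.2 CPM in DMSO, 2.77-fold) and Polr3a (96.2 against 43.8 CPM in DMSO, 2.20-fold). With the SREBP inhibitor 1 was 2-fold higher and with the VDR activator 0, beside 1.95% and 0.184% of all genes. Maf1, the repressor of RNA polymerase III, was 1.46-fold lower with 25-hydroxyvitamin D3 (1.38 to 1.54), with 97.4 CPM and 142 CPM in DMSO, and Brf2 and Polr3gl were 1.36-fold and 1.14-fold lower.

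RNA polymerase II genes differed little. Of 11, 1 was at least 2-fold higher with 25-hydroxyvitamin D3 and 0 lower, beside 11.6% and 12.2% of all genes, and their median of 0.07 log2 was near the 0.04 of all genes. Polr2h had 52.4 CPM with 25-hydroxyvitamin D3 and 24.6 CPM in DMSO (2.13-fold, 1.92 to 2.37). Polr2c was 1.88-fold higher and Polr2e 1.18-fold. Polr2a, the gene of the largest subunit, was 1.25-fold lower (1.20 to 1.30), with 204 CPM and 255 CPM in DMSO, Polr2l had 11.6 CPM with 25-hydroxyvitamin D3 and 13.1 CPM in DMSO, and Polr2k 10.7 CPM and 11.1 CPM in DMSO. No gene of this list passed 2-fold with either selective compound. Of all genes, 1.95% were higher and 1.4% lower with the SREBP inhibitor, and 0.184% and 0.324% with the VDR activator. Myc, read from row LOC100773301, had the same order as most of the 42 and as 20.7% of all measured genes. It had 172 CPM with 25-hydroxyvitamin D3, 83.5 with the SREBP inhibitor, 42.4 with the VDR activator and 20.3 in DMSO. The row LOC100758352 carries the same description and had 348 CPM with 25-hydroxyvitamin D3, 167 with the SREBP inhibitor, 86.1 with the VDR activator and 42.1 in DMSO. With the VDR activator LOC100773301 was 2.08-fold above DMSO, where 0 of the 42 passed 2-fold. Whether Myc has a part in the levels of the 42 was not tested.

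**Figure D4:**
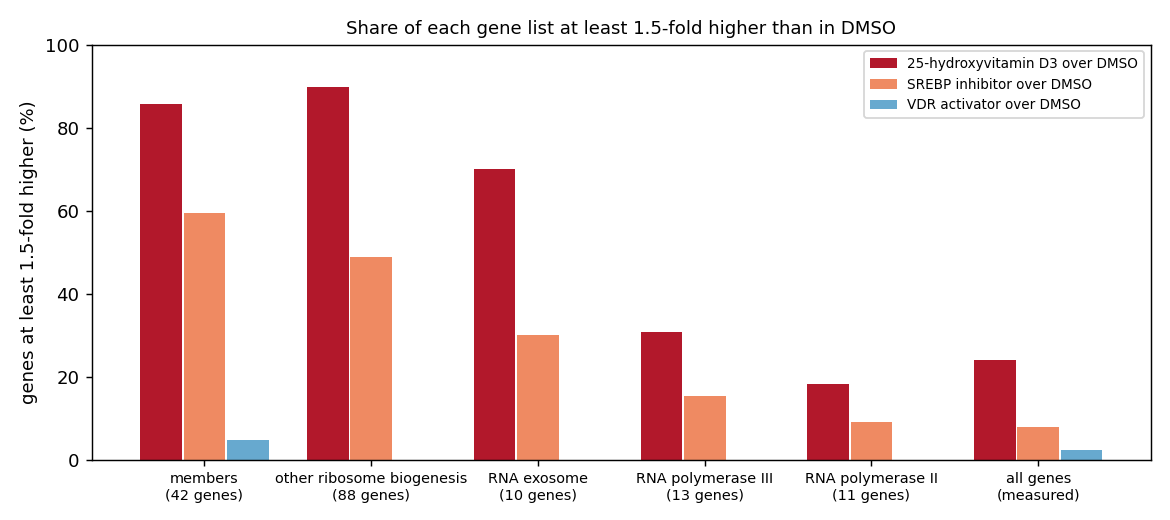
Percent of the measured genes of each list that were at least 1.5-fold higher than in DMSO, by treatment. Members reach 85.7% with 25-hydroxyvitamin D3 and 59.5% with the SREBP inhibitor, RNA polymerase II genes 18.2% and 9.09%, and all measured genes 24.2% and 7.93%.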

How the data were processed

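Poly(A) RNA of 4 CHO-K1 cultures was sequenced. The authors deposited expected counts, which need not be whole, and FPKM per gene, per the file headers. Per the submitters' processing notes, bcl2fastq 1 and TopHat2 2 were used. The counter and the build are not stated there. Where a gene had several rows, these were added together, giving 20754 genes from 21266 rows, and 3 of the 42 members (Gar1, Polr1a and Rrn3) had 2 rows. For these the FPKM is that of the row with more counts. Of the 42 members, 18 had a count that was not whole in some library, so reads shared with similar sequences may have been split.

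Counts were rounded. Effective library sizes came from edgeR 4.0.16 under R 4.3.3 (TMM scaling), and 1 CPM stood for 20.4 counts with 25-hydroxyvitamin D3, 23.2 with the SREBP inhibitor, 24.4 with the VDR activator and 21.7 in DMSO. A gene was measured in a pair with at least 1 CPM and 10 counts in 1 of the libraries. Differences used a pseudocount of 1 CPM, which understates changes of low genes. The call rule was tested on simulated counts that held counting error only, so differences between cultures were not covered. All members were described with their values, and from the other lists the 3 highest and 3 lowest differences among genes with at least 5 CPM were named. Members and lists were chosen with earlier results of these data known. Reads without molecular identifiers are not independent molecules, so intervals can be too narrow. DESeq2 1.42.0 size factors were an alternative.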

Additional observations from a re-analysis of the deposited data

How the results depend on the processing

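No paired analysis was possible because each treatment has 1 library, and for the same reason no library could be left out. Of 1512 recomputed differences of single members, 1443 moved by less than their counting error and 69 by more. Of the 69, 52 came with the deposited FPKM in place of CPM. Part of the 1443 could not move. Another minimum leaves each single difference as it was, and taking only the row with the most counts can change only the 3 members with 2 rows. Every member kept the sign of its difference from DMSO under all settings run with 25-hydroxyvitamin D3 and with the SREBP inhibitor. Nop14 did not keep it with the VDR activator, nor Ubtf and Imp3 between 25-hydroxyvitamin D3 and the SREBP inhibitor. The deposited FPKM gave members' medians of 1.33 log2 for 25-hydroxyvitamin D3 against DMSO and 0.54 against the SREBP inhibitor, with medians over all genes of -0.04 and -0.07. A 1.5-fold limit gave 25 members higher with the SREBP inhibitor, 2 with the VDR activator and 26 for 25-hydroxyvitamin D3 against the SREBP inhibitor, by construction. DESeq2 size factors gave 5 members 2-fold higher in that last comparison, where 3 are reported. Gar1 and Rrp12 lay just under the limit as reported, at 0.987 log2 each. With DESeq2 size factors the members' median there was 0.69 log2 in place of 0.66. The other counts stayed within 1.5 times of those reported. With 4 single libraries, depth sets counting error only, and differences between cultures of 1 treatment are unknown.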

Other observations

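A row outside the set went the other way. LOC100758539, described as homolog B of the processome protein UTP14, had 5.40 CPM with 25-hydroxyvitamin D3, 13.7 with the SREBP inhibitor, 28.4 with the VDR activator and 31.1 in DMSO, and was 5.77-fold lower with 25-hydroxyvitamin D3 (4.71 to 7.12). Utp14a, its close relative among the 42, was 2.96-fold higher. By RefSeq positions (CriGri-PICRH-1.0) the row's gene lies within Acsl3, which encodes a long-chain acyl-CoA synthetase. Acsl3 had 38.9, 75.7 and 154 CPM in the treated libraries and 212 CPM in DMSO, and was 5.47-fold lower with 25-hydroxyvitamin D3 (5.07 to 5.90). The row held 13.9, 18.1 and 18.4 counts per 100 counts of Acsl3 in the treated libraries and 14.6 in DMSO. The rule by which overlapping reads were counted is not stated in the labels, and the level of this row cannot be told apart from that of Acsl3. This row was chosen after its values were seen.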
